A study of Triticum aestivum with 6 samples.

Results

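Transcripts that are abundant and nearly level in every tissue and stage of the developing wheat grain are described here. They were chosen by RPKM, the authors' read count of a sequence scaled by its length and by the total reads of the library: a sequence qualified when its RPKM was at least 50 in all 6 libraries and its highest value was at most 2 times its lowest. The rule found 61 of the 221925 sequences listed. The measured levels thus fixed both the abundance and the evenness of the 61, and neither is a finding or carries a test. Of the 506 sequences that reached an RPKM of 50 in all 6 libraries, the 61 were 12.1%, and the other 445 varied by more than 2 times.

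The plants were of the bread wheat (Triticum aestivum) cultivar Banks. Developing seeds were microdissected into aleurone, which forms the outermost endosperm cells, and starchy endosperm, which fills the interior with starch and storage protein, at 6, 9 and 14 days post anthesis (DPA). Each tissue at each stage gave 1 RNA-seq library from a pool of at least 5 seeds, taken from 3 spikes of 3 plants, so no value has a replicate error. Library cDNA was made by priming at the poly(A) tail and amplification, per the labels, and its effect on counts along a sequence was not analysed. In these bulk samples, fewer cells of a type and less RNA per cell cannot be told apart.

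Transcripts of steady level serve as internal references: a library's measurement is divided by theirs so that other transcripts can be compared between samples. Genes of basic cell upkeep, such as those for actin, tubulin, ubiquitin and translation factors, are the customary choice in plants. RPKM is relative to the library's total, so a few transcripts that take a large share of the reads lower the values of all the others. Reads with more than a single matching sequence are common in wheat, whose hexaploid genome carries related copies of most genes.

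Names and functions of the 61 are not given by the files, and 0 of the listed identifiers matched the reference gene table used here, so whether the customary reference genes are among them was not analysed, and the tissue labels were not checked against marker genes. Of the 61, 57 had identifiers beginning with TC and 4 had others, GH721396, GH728814, CD879962 and CK194423. TC identifiers made up 93.4% of the even sequences, 85.6% of the 445 uneven ones and 42.1% of all sequences listed. Whether several of the 61 stand for the same gene was not analysed.

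Library totals ranged from 4104682 reads in starchy endosperm at 9 DPA to 37911327 reads in aleurone at 14 DPA. Both 9 DPA libraries were shallow, and 1 read was worth 0.273 RPKM in aleurone and 0.303 RPKM in starchy endosperm there for a sequence of 805 bases, the median length of the 61, against 0.0328 to 0.0458 RPKM in the other 4 libraries. The authors counted 52.2%, 45.1% and 50.1% of the reads as unique in aleurone at 6, 9 and 14 DPA. In starchy endosperm these shares were 52.9%, 42.1% and 42.8%.

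The level of the 61 was high beside the whole list, as the rule requires. Of the 221925 sequences, 2492 in 14 DPA starchy endosperm to 4655 in 6 DPA aleurone reached an RPKM of 50. The geometric mean of the 61 over the 6 libraries ran from 62.6 to 249 RPKM, with a median of 85.0 RPKM. There were 15 sequences with a mean of at least 100 RPKM and 16 with a mean under 75 RPKM. Together the 61 held 0.509%, 0.511% and 0.528% of the aleurone reads at 6, 9 and 14 DPA, and 0.528%, 0.579% and 0.471% of the starchy endosperm reads. Their median RPKM was 90.1, 86.1 and 87.0 in aleurone and 89.0, 92.4 and 77.2 in starchy endosperm at these stages.

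**Figure D1:**
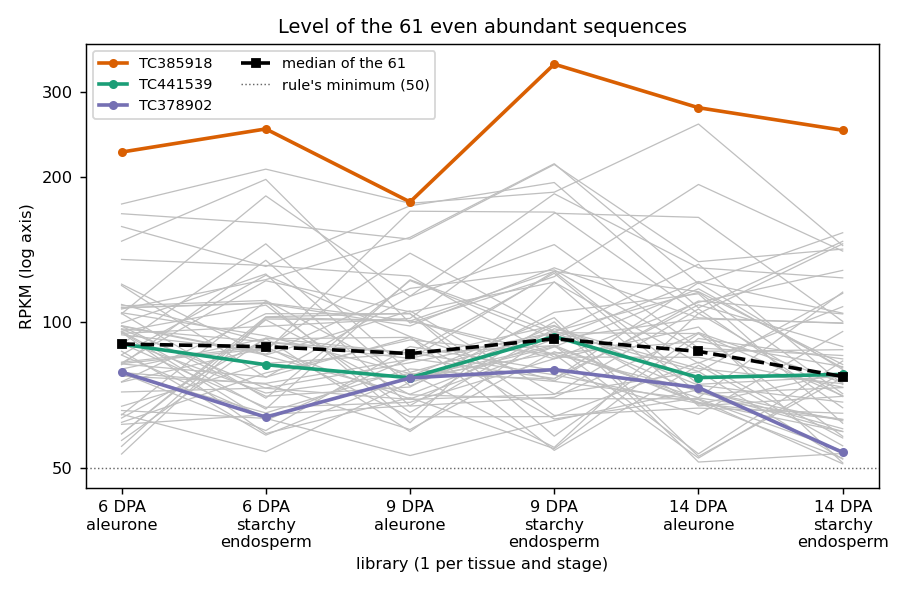
RPKM (log axis) of each of the 61 even abundant sequences (grey lines) in the 6 libraries, aleurone left of starchy endosperm at each stage. TC385918 is the most abundant, TC441539 the most even on RPKM, TC378902 has the smallest worst factor over RPKM, unique reads and TMM-scaled values, and the median of the 61 (black, dashed) lies between 77.2 and 92.4.

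The most abundant of the 61 was TC385918 (730 bases). It had 225, 177 and 278 RPKM in aleurone at 6, 9 and 14 DPA, and 251, 342 and 249.6 RPKM in starchy endosperm. Its 9 DPA aleurone value was the lowest and its 9 DPA starchy endosperm value the highest, 1.93 times apart. TC384853 (999 bases) had 176, 176 and 257 RPKM in aleurone and 207, 186 and 144 RPKM in starchy endosperm, so that the tissues stood furthest apart at 14 DPA. TC458904 (833 bases) had 168, 149 and 133 RPKM in aleurone and 160.2, 212 and 142 RPKM in starchy endosperm. TC430939 (621 bases) had 158, 174 and 107 RPKM in aleurone and 130.4, 195 and 147 RPKM in starchy endosperm. In TC458904 and TC430939 the highest value was again that of 9 DPA starchy endosperm and the lowest that of 14 DPA aleurone. TC433943 (702 bases) had 147, 99.6 and 193 RPKM in aleurone and 198, 124 and 140.4 RPKM in starchy endosperm, with the lowest value at 9 DPA in each tissue.

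Of the 61, 9 stayed within 1.5 times over the 6 libraries. The median highest over lowest was 1.74. TC441539 (553 bases) was the most even on RPKM, at 90.1, 76.7 and 76.8 RPKM in aleurone and 81.7, 93.4 and 78.0 RPKM in starchy endosperm, a factor of 1.22. The exact 95% interval of that factor from read counts was 0.997 to 1.49, which includes 1; the intervals of the other 60 lay above 1. The intervals cover counting error only, and the highest and lowest libraries were picked after the values were known.

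TC394168 (893 bases) followed with 107, 98.2 and 102 RPKM in aleurone and 109, 129.6 and 99.4 RPKM in starchy endosperm, a factor of 1.32. Its other 5 libraries lay within 98.2 to 109 RPKM, and the 9 DPA starchy endosperm stood above them. CK194423 (689 bases) had 65.6, 53.0 and 72.5 RPKM in aleurone and 63.2, 62.6 and 60.2 RPKM in starchy endosperm, a factor of 1.37. TC436076 (1133 bases) had 78.7, 59.95 and 69.7 RPKM in aleurone and 74.4, 86.9 and 62.9 RPKM in starchy endosperm, a factor of 1.45. TC399566 (655 bases) had 108, 76.5 and 91.3 RPKM in aleurone and 111, 86.3 and 80.9 RPKM in starchy endosperm, also a factor of 1.45. These 3 sequences were lowest in 9 DPA aleurone.

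Counting error was small beside the variation that remained. The coefficient of variation of RPKM over the 6 libraries had a median of 21.0% (range 8.77% to 31.7%), while the part that read counts alone give had a median of 3.55% (range 2.17% to 10.5%). The first was more than 2 times the second in 60 of the 61, the exception being TC441539 with 8.77% against 4.58%. There were 52 sequences with at least 200 reads in every library. The only one with fewer than 100 reads in a library was CD879962, the shortest at 114 bases, with 54 reads in 9 DPA aleurone and 30 reads in 9 DPA starchy endosperm.

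The limits of the rule cut through a continuous range. TC449887 (1.999 times) and TC457295 (1.985 times) lay just inside the limit of 2, and TC388226 (2.003 times) and TC459051 (2.014 times) just outside it. There were 14 abundant sequences between 1.9 and 2 times and 11 between 2 and 2.1 times. The interval of the factor from read counts reached over 2 in 25 of the 61. On the RPKM limit, TC372518 (lowest value 50.9 RPKM) and TC457295 (51.1 RPKM) were just inside, and TC390451 (49.5 RPKM) and TC369420 (48.8 RPKM) were as even but just under it.

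**Figure D2:**
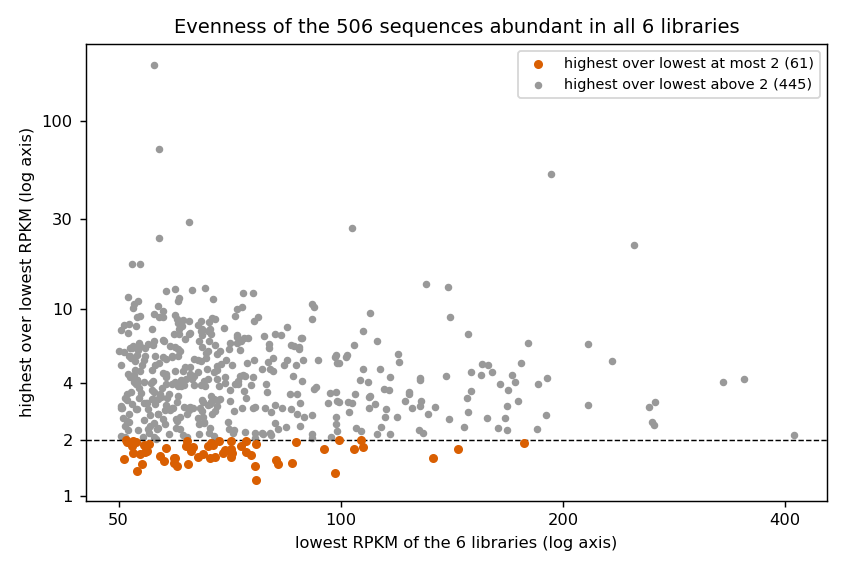
Highest over lowest RPKM against lowest RPKM (both log axes) for the 506 sequences with an RPKM of at least 50 in all 6 libraries. The 61 even sequences (orange) lie under the dashed limit of 2 and mostly under 100 RPKM, while the uneven ones (grey) reach 199.8 times.

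Evenness of this kind was the exception among abundant transcripts. The 506 had a median highest over lowest of 3.77, and 232 varied by more than 4 times. An RPKM of 50 was reached by 10872 sequences in at least 1 library, and the 506 were 4.65% of these. The share of even sequences was 2.81% for a lowest value of 1 to 5 RPKM, 6.21% for 5 to 10, 9.46% for 10 to 20 and 10.6% for 20 to 50. It was 13.3% (55 of 413) for 50 to 100 RPKM and 6.45% (6 of 93) above that. The part of counting error in the smaller shares at low levels was not tested.

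On the RPKM scale and inside the limits, the 61 had no common tissue preference. The aleurone value exceeded that of starchy endosperm in 30 of 61 at 6 DPA, in 22 at 9 DPA and in 42 at 14 DPA, with median aleurone over starchy endosperm ratios of 0.981, 0.887 and 1.11. There were 8 sequences higher in aleurone at all 3 stages, 5 higher in starchy endosperm at all 3 and 48 whose direction differed between stages. The highest of the 6 values was in 9 DPA starchy endosperm for 23 sequences, and the lowest was in 14 DPA starchy endosperm for 18. In starchy endosperm, 46 of 61 were lower at 14 than at 9 DPA, with a median ratio of 0.780, and 42 were lower at 14 than at 6 DPA, with a median ratio of 0.863. These directions turned with the scaling. After division by TMM factors, which set the scale of a library from the bulk of its sequences, the value of starchy endosperm was the higher in 42, 42 and 54 of 61 at 6, 9 and 14 DPA, with median aleurone over starchy endosperm ratios of 0.856, 0.843 and 0.690. On that scale 14 DPA starchy endosperm was higher than 9 DPA in 54 of 61 (median ratio 1.31) and higher than 6 DPA in 49 (median ratio 1.325). With RPKM recomputed from unique reads, aleurone was the higher in 31, 18 and 25 of 61 at 6, 9 and 14 DPA. In starchy endosperm, unique reads put 14 DPA above 9 DPA in 33 of 61 and above 6 DPA in 30. In aleurone the RPKM medians were near 1, at 0.963 for 9 over 6 DPA, 0.970 for 14 over 9 DPA and 0.997 for 14 over 6 DPA.

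The 61 were of the same median length as the uneven abundant sequences but had fewer short members. Both sets had a median of 805 bases. The middle range (25th to 75th percentile) was 689 to 1079 bases for the even set and 606 to 1058 bases for the uneven set. Sequences under 500 bases were 3 of 61 (4.92%) in the even set and 63 of 445 (14.2%) in the uneven set. The 609 even sequences of lower level, with a lowest value of 10 to 50 RPKM, had a median of 926 bases, and all sequences listed had 644 bases.

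The longest of the 61 was TC451164 (1965 bases), at 75.1, 69.4 and 117 RPKM in aleurone and 88.5, 88.9 and 80.4 RPKM in starchy endosperm. Its 14 DPA aleurone value stood above the other 5. The shortest, CD879962, had 75.3, 104 and 66.4 RPKM in aleurone and 104, 64.1 and 64.8 RPKM in starchy endosperm. Its 9 DPA values of 104 RPKM in aleurone and 64.1 RPKM in starchy endosperm rest on the 54 and 30 reads given above.

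A larger part of the reads was unique in the even sequences than in the uneven abundant ones. Over the 6 libraries the median unique share was 55.7% in the even set, 33.2% in the uneven abundant set, 65.9% in the even set of lower level and 66.7% over all listed sequences with reads. The even set ranged from 8.51% to 100%, with 9 sequences at 90% or more (14.8%), 27 under 50% (44.3%) and 3 under 20% (4.92%). In the uneven set 5.62% were at 90% or more, 69.7% were under 50% and 28.3% were under 20%. Of all listed sequences with reads, 34.0% were at 90% or more, 40.9% were under 50% and 26.5% were under 20%. The even abundant set was thus above the uneven one. Against the whole list it had a lower median and a smaller part at 90% or more, but also a smaller part under 20%. With the reads of all sequences of a set pooled, the unique share was 57.6% in the even set and 48.8% in the whole list. Among the 506 abundant sequences, the share that was even was 2.33% (3 of 129) at a unique share under 20%, 11.5% (24 of 208) at 20% to 50%, 21.9% (23 of 105) at 50% to 80% and 17.2% (11 of 64) above. Unique reads are part of the reads that chose the set, and these shares are a description.

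**Figure D3:**
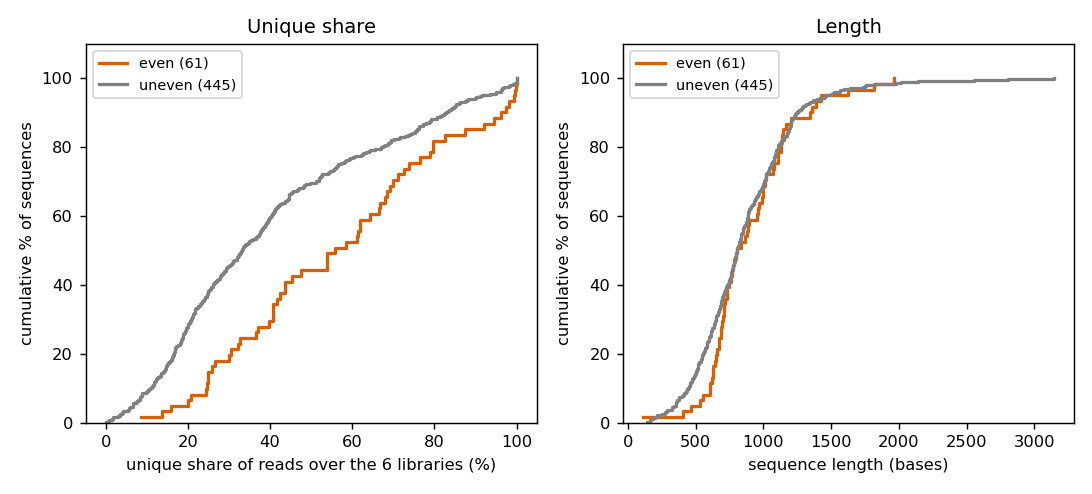
Cumulative percent of sequences against unique share of reads (left, in percent, all 6 libraries pooled) and against length in bases (right), for the 61 even (orange) and the 445 uneven (grey) abundant sequences. The even set lies to the right in unique share, with medians of 55.7% against 33.2%, and the length curves share a median of 805 bases.

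Single sequences of the even set differed widely in unique share. All reads of TC450556 (691 bases) were unique in every library, and it had 119.9, 70.9 and 102 RPKM in aleurone and 85.1, 92.4 and 99.6 RPKM in starchy endosperm. Its 9 DPA aleurone value was the lowest, and the other 5 lay within 85.1 to 119.9 RPKM. TC399566, one of the 5 most even sequences, had only 8.51% unique reads, and its share stayed between 7.96% and 11.0% in the 6 libraries. The sources used here do not say how the other reads were shared among matching sequences.

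The unique share was lower at 9 DPA. The median over the 61 was 58.3%, 37.9% and 56.5% in aleurone at 6, 9 and 14 DPA, and 57.8%, 36.9% and 55.2% in starchy endosperm. In 53 of the 61 (86.9%) the lowest of the 6 shares was in a 9 DPA library, and in 41 (67.2%) both 9 DPA shares lay below all 4 others. The same held for 80.8% and 58.8% of the 9126 sequences with at least 50 reads in all 6 libraries, so the lower share at 9 DPA was general among these. Over all reads of a library, 14 DPA starchy endosperm (42.8%) lay between 9 DPA aleurone (45.1%) and 9 DPA starchy endosperm (42.1%). The 2 libraries of 9 DPA were also the shallowest. The part of depth, read length or read assignment in the lower 9 DPA shares was not tested. In 51 of the 61 the share spanned more than 10 percentage points over the libraries.

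GH728814 (646 bases) is an example, singled out after its values were seen. Its unique share was 92.1%, 22.6% and 91.8% in aleurone and 86.2%, 26.03% and 91.4% in starchy endosperm at 6, 9 and 14 DPA. The 9 DPA values stood far below the other 4, on 230 and 146 reads in all. TC385918, the most abundant of the set, had unique shares of 58.3%, 7.64% and 64.3% in aleurone and 77.0%, 4.59% and 62.1% in starchy endosperm. For TC378902 (1170 bases), in contrast, the 6 shares lay between 53.3% and 57.8%.

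Restricting the data to unique reads broke the evenness of about as many sequences as it kept. With RPKM recomputed from unique reads and their own library sums, 30 of the 61 stayed within 2 times and 31 did not, and the median highest over lowest was 2.004. By comparison 11 of the 445 uneven sequences (2.47%) came within 2 times. The 445 were uneven by the rule on reads that include the unique ones, so a low share follows in part from the rule. TC385918 varied 12.2 times on unique reads. TC441539, the most even on RPKM, varied 2.32 times on unique reads, while the others of the 5 most even stayed within 2 times. CD879962 had no unique read among its 30 reads in 9 DPA starchy endosperm. Of the 9 sequences with at least 90% unique reads, 5 stayed within 2 times, and the largest factor among the 9 was 2.40. The change of library sum enters here. Unique reads scaled to total reads gave TC449887 1.94 instead of 2.40, TC418697 1.92 instead of 2.37 and TC396144 1.68 instead of 2.04. TC385837 had 2.01 instead of 2.004. Scaled in this way, 29 of the 61 stayed within 2 times.

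Leaving out 9 DPA returned more of the sequences lost on unique reads than leaving out another stage. Over the 4 libraries of 6 and 14 DPA, 53 of the 61 stayed within 2 times on unique reads, with a median factor of 1.67 and a largest of 3.30. These 53 include 23 of the 31 that failed over all 6 libraries. Fewer libraries leave less room for a wide range, and the same count was therefore taken without the other stages, a comparison added after seeing the data. Without 6 DPA 35 of the 61 were within 2 times, and without 14 DPA also 35, each including 5 of the 31. Of the 609 even sequences of lower level, 530 (87.0%) were within 2 times without 9 DPA, against 86.9% of the 61, so this was not particular to the 61. Of the uneven abundant sequences, 16.4% came within 2 times without 6 DPA, 16.4% without 9 DPA and 13.9% without 14 DPA. That set was uneven by the rule on reads that include the unique ones. Between the 9 DPA libraries alone, 57 of the 61 were within 2 times on unique reads.

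**Figure D4:**
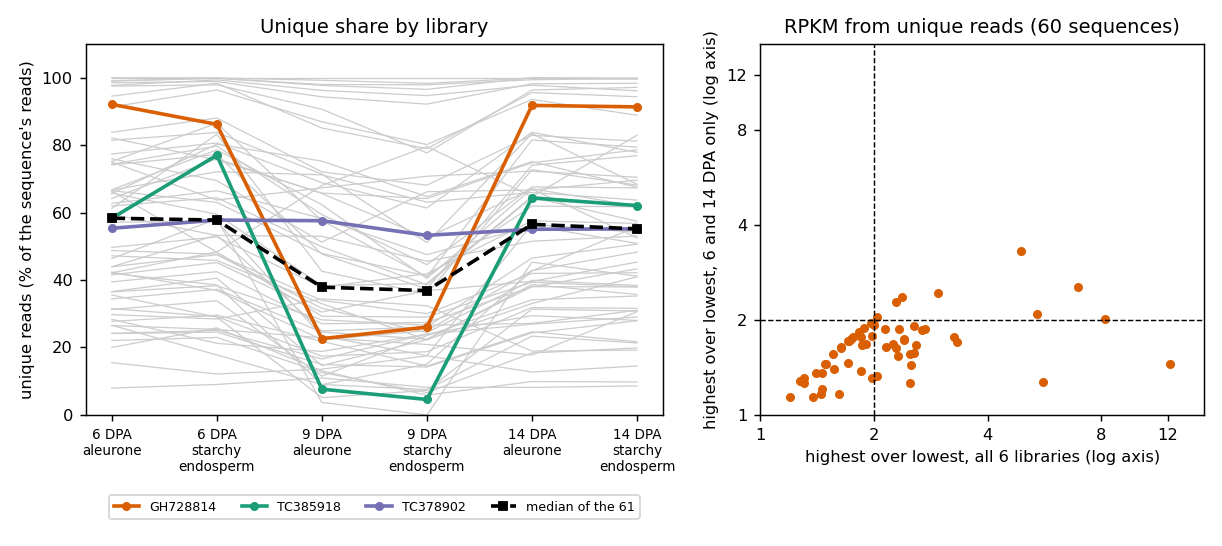
Left, unique reads as a percent of each sequence's reads for the 61 even sequences by library (grey), with GH728814, TC385918, TC378902 and the median (black, dashed). Right, highest over lowest RPKM from unique reads over 6 and 14 DPA only against all 6 libraries (log axes, dashed lines at 2, 60 sequences with unique reads in every library). The median share falls to 37.9% and 36.9% at 9 DPA, and 53 of the 61 are within 2 times without that stage.

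Evenness also depended on how libraries were scaled. RPKM divides by the total reads, while TMM and DESeq2 size factors estimate the scale from the bulk of the sequences and discount the few that change most. Relative to total reads, the TMM factors were 1.15, 1.15 and 1.05 in aleurone and 1.002, 1.10 and 0.652 in starchy endosperm at 6, 9 and 14 DPA. The size factors were 1.21, 1.11 and 1.05 in aleurone and 1.02, 1.08 and 0.642 in starchy endosperm. By both, typical transcripts had an RPKM in 14 DPA starchy endosperm that was low for that library's total.

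After division by the TMM factors, 32 of the 61 stayed within 2 times, and 29 did not. The median highest over lowest was then 1.95 and the largest 3.32. The highest value was that of 14 DPA starchy endosperm in 41 of the 61, and the lowest was there in 0. On this scale the 14 DPA aleurone value exceeded that of 14 DPA starchy endosperm in 7 of 61, against 42 of 61 on the RPKM scale. With size factors 33 stayed within 2 times. The rule applied to TMM-scaled values found 79 sequences, of which 29 (36.7%) were among the 61, and these were 47.5% of the 61.

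There were 20 sequences within 2 times on all 3 measures, that is on RPKM, on RPKM from unique reads and on RPKM divided by TMM factors. The 5 of these with the smallest worst factor were TC378902, TC451811, TC372518, TC393810 and TC387102. TC378902 had 78.8, 76.7 and 73.2 RPKM in aleurone and 63.6, 79.8 and 53.7 RPKM in starchy endosperm. Its factor was 1.48 on RPKM, 1.46 on unique reads and 1.298 after TMM. It was lowest in 14 DPA starchy endosperm by RPKM, and highest there once divided by TMM.

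TC451811 (707 bases) had 96.2% unique reads, with 85.5, 76.5 and 68.3 RPKM in aleurone and 63.5, 89.6 and 59.4 RPKM in starchy endosperm. TC372518 (953 bases) had 78.5, 80.04 and 69.1 RPKM in aleurone and 64.9, 75.4 and 50.9 RPKM in starchy endosperm. Its factor was 1.57 on RPKM and 1.205 after TMM, the smallest after TMM in the set. TC393810 (1817 bases) had 98.4, 117 and 87.0 RPKM in aleurone and 85.9, 128 and 87.7 RPKM in starchy endosperm, highest at 9 DPA in each tissue. TC387102 (969 bases) had 96.7, 69.2 and 106 RPKM in aleurone and 73.0, 70.9 and 66.5 RPKM in starchy endosperm, where the 6 and 14 DPA aleurone values stood above the other 4.

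To read the rule in data it had not used, it was applied to 5 libraries and the left-out library was then set against the geometric mean of the 5. A value within 2 times that mean was found for 90.4% of 83 chosen sequences in 6 DPA aleurone, 77.1% of 105 in 9 DPA aleurone and 89.0% of 82 in 14 DPA aleurone. For starchy endosperm the shares were 76.2% (101 chosen) at 6 DPA, 81.5% (92 chosen) at 9 DPA and 60.7% (173 chosen) at 14 DPA. For all sequences with an RPKM of at least 50 in the 5 libraries the shares were 77.5%, 64.1% and 78.8% in aleurone and 64.9%, 71.5% and 47.8% in starchy endosperm. The chosen sequences thus stood 9.99 to 13.0 percentage points above all abundant ones in these 6 comparisons. The 5 choosing libraries are the same for both shares, and no test was made of the difference. The window of 0.5 to 2 times the mean is wider than the rule's limit. Of the chosen, the rule over all 6 libraries kept 73.5%, 58.1% and 74.4% for aleurone at 6, 9 and 14 DPA. For starchy endosperm it kept 60.4%, 66.3% and 35.3%.

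The 14 DPA starchy endosperm was the library least foreseen by the others. Of the 173 sequences that were even over the other 5, 66 fell below 0.5 times their mean there and 2 lay above 2 times, and the 61 that also met the rule with it were 35.3% of them. The median of the 173 in that library was 0.597 of the mean of the 5. For all 809 sequences with an RPKM of at least 50 in the 5 it was lower, at 0.509, so the fall was not particular to the 173. With both 14 DPA libraries left out, 310 sequences were chosen and 40.0% were within 2 times the mean in both, against 34.1% of all abundant sequences. With both 6 DPA libraries left out the shares were 65.4% of 156 and 50.6%, and with both 9 DPA libraries left out 55.9% of 186 and 44.1%.

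A choice made in a single tissue carried over poorly to the other. Of 402 sequences chosen on the 3 starchy endosperm libraries, 32.6% were within 2 times in all 3 aleurone libraries, against 23.9% of all abundant ones. Of 760 chosen on the 3 aleurone libraries, 23.0% were within 2 times in all 3 starchy endosperm libraries, against 16.9%. The 61 were 15.2% and 8.03% of the sequences chosen in a single tissue.

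As a scaling reference, the 61 stayed close to the library totals, as the rule requires. The factor of a library is the median over the 61 of its RPKM divided by each sequence's geometric mean. It was 1.01, 0.992 and 0.998 in aleurone and 1.01, 1.12 and 0.880 in starchy endosperm at 6, 9 and 14 DPA. The largest factor was 1.28 times the smallest, against 1.77 times for TMM and 1.88 times for size factors. In 14 DPA starchy endosperm the factor of the 61 was 1.35 times that of TMM.

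Sequences can also be chosen without the library to be scaled, though still on RPKM of the other 5. On the scale of a library over the geometric mean of the other 5, sequences chosen without 14 DPA starchy endosperm gave 0.597, TMM gave 0.599, the size factors gave 0.588, and the 61 gave 0.857. The value for 14 DPA starchy endosperm depended on which libraries did the choosing. Over the mean of the choosing libraries it was 0.476 when both 14 DPA libraries were left out. With the 3 starchy endosperm libraries left out it was 0.422. The closeness of 0.597 to TMM thus holds for 1 choice of libraries. In each of the other 5 libraries the 61 were nearer to TMM than the left-out choice was. The 61, the left-out choice and TMM gave 1.012, 1.008 and 1.18 in 6 DPA aleurone, 0.990, 0.916 and 1.19 in 9 DPA aleurone, and 0.998, 0.955 and 1.06 in 14 DPA aleurone. In starchy endosperm they gave 1.012, 1.24 and 1.003 at 6 DPA and 1.15, 1.18 and 1.12 at 9 DPA.

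**Figure D5:**
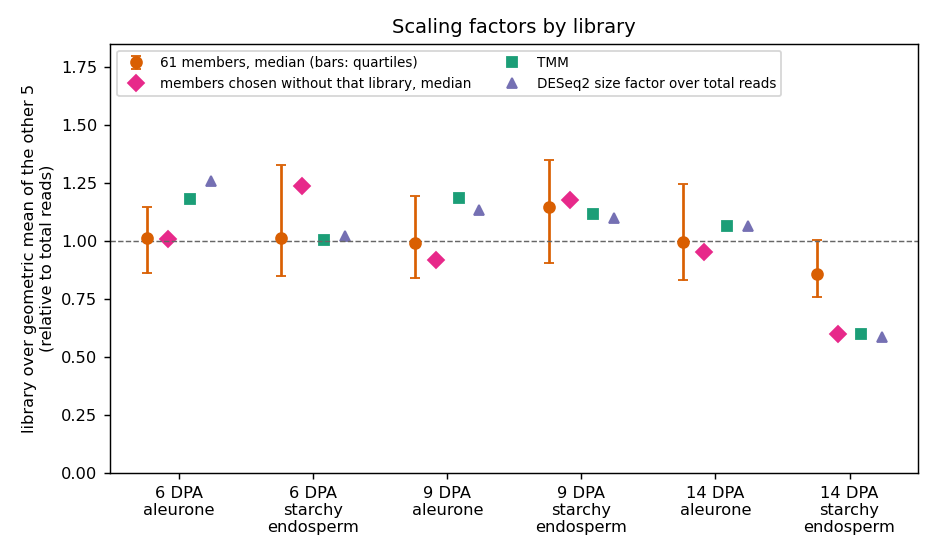
Scaling factor of each library, relative to total reads and over the geometric mean of the other 5 libraries, from the 61 sequences (median, bars from the 25th to the 75th percentile), from sequences chosen without that library, from TMM and from DESeq2 size factors. In 14 DPA starchy endosperm the 61 give 0.857, and the other 3 estimates lie between 0.588 and 0.599.

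A single sequence is a coarse reference. The log2 ratio of aleurone to starchy endosperm of the 61 had a median of -0.03 at 6 DPA and ranged from -0.93 to 0.70. At 9 DPA the median was -0.17 with a range of -0.97 to 0.84, and at 14 DPA it was 0.15 with a range of -0.73 to 0.93. TMM put this shift at 0.20, 0.07 and 0.69 at 6, 9 and 14 DPA, and library totals put it at 0 by definition. Which member was picked could thus move every tissue ratio of a stage by up to 1.62, 1.81 and 1.66 log2 units at 6, 9 and 14 DPA. The limit of 2 in the rule caps each member's tissue ratio, so these ranges follow in part from the rule.

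The effect of the reference on the tissue comparison was read as the number of sequences at least 4-fold apart, among those with at least 50 reads in the higher of both libraries, where a lower library under 3 reads was set at 3. Scaled by the 61, 4-fold differences were 27.4% (56786 sequences) at 6 DPA, 39.0% (22297 sequences) at 9 DPA and 30.9% (57919 sequences) at 14 DPA. The 61 themselves had 0 by the rule. Of these differences, 62.5%, 66.1% and 76.03% were higher in aleurone at 6, 9 and 14 DPA. With TMM the shares higher in aleurone were 55.6%, 60.3% and 62.8%, and with library totals 61.7%, 62.1% and 79.1%. At 14 DPA the 61 put 13615 sequences higher in aleurone and 4292 lower there than in starchy endosperm, where TMM put 9937 higher and 5886 lower. Sequences chosen on the 4 libraries of 6 and 9 DPA put 10216 higher and 5721 lower in aleurone, or 64.1% higher, close to the share with TMM. The same kind of choice moved away from TMM at the earlier stages, with 68.9% higher in aleurone at 6 DPA and 68.9% at 9 DPA. With 1 library per tissue and stage these counts compare libraries and carry no p-value. The minimum of 50 reads stands for a higher RPKM in the shallow 9 DPA libraries. The shares at 9 DPA thus cover a different set of sequences and are not to be compared with those of the other stages.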

How the data were processed

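Each deposited file gives, per the file headers, a sequence's length, total reads, unique reads and RPKM for 1 library. The authors' counts are whole reads, and the deposited RPKM equals total reads scaled by length and by the column sum to within 0.0005. The sources used here do not name the aligner. The 61 sequences, the comparison sets and the alternatives were chosen with earlier results of these data known. Unique-read RPKM was recomputed from unique reads and their library sums. TMM factors (edgeR 4.0.16) and DESeq2 1.42.0 size factors were computed in R 4.3.3 on 75040 sequences that reached 10 reads in 3 or more libraries and set to a geometric mean of 1. No hypothesis test was run, since each group is 1 library and the rule used all of them. Intervals of highest over lowest are exact binomial (95%). The functions for RPKM, highest over lowest and the scaling factors were tested on simulated data with known even sequences. The simulation did not cover the rule's choice of sequences, the left-out libraries, the intervals or the 4-fold counts. Named sequences were the 5 most abundant, the 5 most even, the 5 most even on all 3 measures, the extremes of length and unique share, and those beside each limit. Gene and marker lists matched 0 identifiers and were not used.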

Additional observations from a re-analysis of the deposited data

How the results depend on the processing

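The count of 61 depended on every limit of the rule. An RPKM minimum of 20 gave 281 sequences and one of 100 gave 6. A limit on highest over lowest of 1.5 gave 9 and one of 3 gave 182. Leaving out 1 library at a time gave 82 to 173, the most without 14 DPA starchy endosperm. Dropping a library can only keep or add sequences, so all 61 stayed each time and no count could fall below 61. The count was 105 with the 9 DPA aleurone library left out, 92 with that of 9 DPA starchy endosperm left out and 101 with that of 6 DPA starchy endosperm left out. Unique reads gave 87 (21 of them among the 61), and at equal depth 59 were found (51 among the 61). A pair of alternatives was added after seeing the data: unique reads scaled to all reads gave 15, and reads not counted as unique gave 42. The median unique share (55.7%) was 67.3% with a minimum of 100, 79.7% on unique reads, 94.4% for unique reads scaled to all reads and 24.8% for the reads not counted as unique. It was lower at 42.5% with equal depth, 43.3% with a limit of 3, 42.4% when 6 DPA starchy endosperm and 43.6% when 9 DPA aleurone was left out. The share of a sequence pools its reads over the libraries, so the 9 DPA libraries weigh more in it at equal depth. The median length (805 bases) was 972 bases with DESeq2 size factors. The numbers of sequences 4-fold apart at 6, 9 and 14 DPA were 25448, 18641 and 27567 with no read minimum, and at a ratio of 2 they were 30383, 14276 and 33285. The cause of these shifts was not tested beyond the settings themselves. No paired analysis was possible because each group is 1 library with the same replicate number and no value comes from a test. Tissue ratios are given within each stage instead. Depth limits the 9 DPA values most.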
